A study of Mus musculus with 6 samples.

Results

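The 34 genes described here serve cholesterol synthesis, sensing, storage and efflux in mouse liver, and were chosen by their symbols from a list. All 34 have 1 row each among the 55536 genes of the deposited table, and all 34 passed the filter of at least 1 TPM in at least 3 libraries that left 12796 genes to test. TPM is a transcript abundance corrected for transcript length, with the same sum for every library. Livers came from C57BL/6 mice aged 8 to 10 weeks, and both groups carried floxed Vmp1, a form of the gene from which Cre recombinase cuts a stretch. An intravenous AAV8 virus with the TBG promoter, which is active in hepatocytes, was empty for the 3 control libraries (WT) and delivered Cre for the 3 libraries whose titles read H-VMP1 KO, a hepatocyte-specific knockout. The interval from injection was 2 weeks, and the position of the loxP sites was not used here. The series title places the study in hepatic lipoprotein secretion and nonalcoholic steatohepatitis. Other liver cells are not the target of that promoter.

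Cells hold their cholesterol within narrow limits by matching synthesis to the sterol content of the endoplasmic reticulum. When sterols are low, SCAP escorts the membrane-bound factor SREBP2 to the Golgi, where it is cut and released to switch on the enzymes of synthesis, and when sterols are high the INSIG proteins hold SCAP back. When oxysterols accumulate, the nuclear receptors LXRalpha and LXRbeta switch on the ABC transporters that export cholesterol. The liver adds storage as cholesteryl esters, packing into lipoproteins and secretion into bile. VMP1 is a membrane protein of the same endoplasmic reticulum.

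The promoters of the synthesis genes mostly shared a short sequence feature, CCAAT, that the choice of genes did not use. RefSeq promoter windows on GRCm38.p6, running from 250 bases before to 50 bases after each start, were found for 28 of the 34 genes. None was found for Sqle, Fdps, Fdft1, Soat2, Stard4 and Abcg1. CCAAT, the box bound by the factor NF-Y, which works beside SREBP2 at sterol genes, was searched on both strands and lay in a window of 16 of the 17 synthesis enzymes matched and of 23 of the 28 genes, against 41.1% of the 27025 genes with a window. TCACNCCAC, a core of the sterol regulatory element, was found in 1 of the 28 genes, Hmgcs1, against 1.44% of all genes, and this strict spelling misses variant elements. A match is a string of letters and not a measured binding site. The stretches below are printed from 250 bases before the start, stopping at the first annotated exon, to show the promoters of genes that behaved differently below. Hmgcs1 was not called as deposited, Insig1, Ebp and Sc5d fell, and Lbr rose. Capitals mark CCAAT, which reads ATTGG where it lies on the other strand, and the sterol element. They are written 5′ to 3′ on the strand of the gene.
Hmgcs1, chr13:119690101-119690350, plus strand: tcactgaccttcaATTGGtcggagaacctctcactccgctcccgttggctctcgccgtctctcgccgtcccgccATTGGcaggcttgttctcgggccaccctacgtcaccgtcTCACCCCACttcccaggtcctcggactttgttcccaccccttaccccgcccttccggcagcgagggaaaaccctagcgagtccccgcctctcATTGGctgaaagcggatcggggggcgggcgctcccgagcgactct
Insig1, chr5:28071162-28071362, plus strand: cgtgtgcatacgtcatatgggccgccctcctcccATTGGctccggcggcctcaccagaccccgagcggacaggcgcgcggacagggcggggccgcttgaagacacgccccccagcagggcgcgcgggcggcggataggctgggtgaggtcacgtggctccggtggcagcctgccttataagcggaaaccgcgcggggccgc
Ebp, chrX:8193513-8193762, minus strand: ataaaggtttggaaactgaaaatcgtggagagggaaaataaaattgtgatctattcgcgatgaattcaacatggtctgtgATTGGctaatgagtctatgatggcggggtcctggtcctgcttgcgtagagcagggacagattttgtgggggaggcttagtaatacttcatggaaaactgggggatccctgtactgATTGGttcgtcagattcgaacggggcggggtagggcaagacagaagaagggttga
Sc5d, chr9:42264301-42264550, minus strand: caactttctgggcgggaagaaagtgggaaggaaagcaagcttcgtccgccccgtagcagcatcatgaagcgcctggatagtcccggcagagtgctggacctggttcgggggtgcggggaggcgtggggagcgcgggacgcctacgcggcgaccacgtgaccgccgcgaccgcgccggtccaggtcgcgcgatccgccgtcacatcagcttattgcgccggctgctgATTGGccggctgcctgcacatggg
Lbr, chr1:181842402-181842651, minus strand: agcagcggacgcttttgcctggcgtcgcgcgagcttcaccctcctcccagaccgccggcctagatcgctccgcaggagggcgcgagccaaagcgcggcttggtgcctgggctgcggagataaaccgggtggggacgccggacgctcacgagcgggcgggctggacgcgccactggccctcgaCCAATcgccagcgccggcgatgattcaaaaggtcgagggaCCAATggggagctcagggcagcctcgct
In Hmgcs1 the sterol element lay 137 bases before the start, between CCAAT boxes at 176 and 45 bases, with another box at 237 bases. Insig1 held 1 box at 216 bases and Sc5d 1 at 24 bases. Ebp, which fell, held boxes at 170 and 55 bases, and Lbr, which rose, at 68 and 28 bases. Any link between the boxes and the direction of change was not tested. The stretch of Lbr lies inside an intron of a longer annotated Lbr transcript.

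The Mup genes held between 11.6% and 21.2% of TPM in the controls and between 0.341% and 0.545% in the labelled knockout. TPM of other genes rises when abundant genes leave the fixed total, but the part of the Mup genes in the shift given next was not tested. The log2 fold change of the median tested gene was 0.77 with TPM as deposited. It was -0.01 once libraries were put on a median-of-ratios scale, which centres the typical gene near 0 and lowered fold changes by a median of 0.83. Fold changes are therefore given with both scalings, as differences of log2(TPM + 1) ± SE, control subtracted from labelled knockout, with adjusted p from limma over all 12796 genes. "Rose" and "fell" refer to calls as deposited. A gene lower as deposited could hardly be otherwise after this scaling, and all 4496 genes higher after it were also higher as deposited. A call in the same direction with both scalings therefore counts once. Vmp1 itself was not lower under the knockout label, with 70.7, 96.5 and 88.6 TPM in control libraries and 157, 136 and 137 TPM in labelled knockout libraries (log2 fold change 0.75, and -0.18 after scaling), so every direction rests on the labels, and the gene-level value does not check a deletion of some exons. The 6 hepatocyte markers summed to between 40078 and 57228 TPM in controls and between 21276 and 23856 TPM in the labelled knockout, while 12 macrophage markers summed to between 99.5 and 164.7 TPM and between 1046 and 1350 TPM, and none of either list was at 0 throughout. All 12 macrophage markers were called higher with both scalings (35.1% of all tested genes), but Itgam, Ccr2, Trem2 and Gpnmb were under 1 TPM in every control, passed the filter only through the labelled knockout and had to differ. As deposited, 4 of 6 hepatocyte markers fell (10.7% of all tested genes). The 7 endothelial markers summed to between 45 and 54.8 TPM and between 147 and 187 TPM, and the 7 stellate markers to between 45.8 and 49.4 TPM and between 235 and 273 TPM. The part of these markers in the changes of cholesterol genes was not tested. Nothing in the labels ties each library to its own animal, so the p-values reflect sample spread that may be technical. In bulk tissue, fewer cells of a type and less RNA per cell cannot be told apart.

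As a group, the cholesterol genes split rather than moving one way. As deposited, 20 of 34 rose, where 74.5% of all tested genes did, and 8 fell, where 10.7% did. With median-of-ratios scaling 4 were higher (35.1% of all tested genes) and 15 lower (36.6%), and with quantile normalization 8 were higher (35.3%) and 12 lower (35.4%). The genes higher with both scalings were Lbr, Dhcr7, Soat1 and Abcg1 (35.1% of all tested genes). Those lower with both were Scap, Insig1, Tm7sf2, Ebp, Sc5d, Stard4, Abcg5 and Abcg8 (10.7%). Cyp51 and Nr1h3 were higher as deposited and lower after scaling, as were 13.1% of all tested genes. The median log2 fold change of the 34 was 0.79 as deposited and -0.14 after scaling, beside 0.77 and -0.01 for all tested genes. The groups did not overlap in 27 of the 34 genes as deposited, 20 higher (75.5% of all tested genes) and 7 lower (11.3%). After scaling 5 were higher without overlap (37.4%) and 16 lower (39%). Soat1 and Abcg1 were under 1 TPM in every control, so they passed the filter only through the labelled knockout and had to differ. With no filter they were still called, with log2 fold changes of 2.68 (adjusted p = 9.7e-06) and 2.04 (adjusted p = 2.9e-05).

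**Figure D1:**
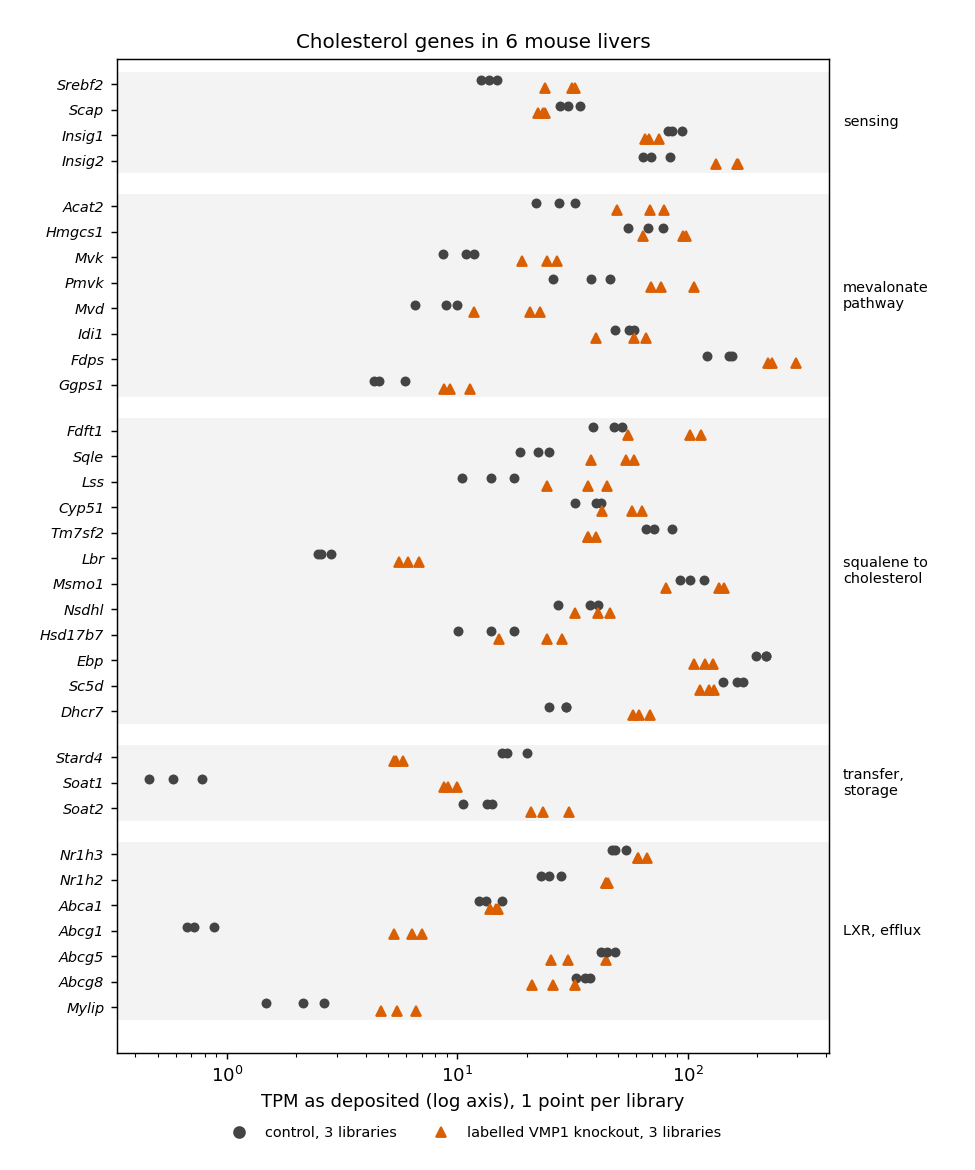
TPM as deposited on a log axis for the 34 genes, 1 point per library, with 3 controls as circles and 3 labelled knockout libraries as triangles, grouped by role. Soat1 and Abcg1 lie under 1 TPM in every control and above 5 TPM in every labelled knockout library, while Stard4, Ebp and Tm7sf2 lie lower in the labelled knockout without overlap.

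**Figure D2:**
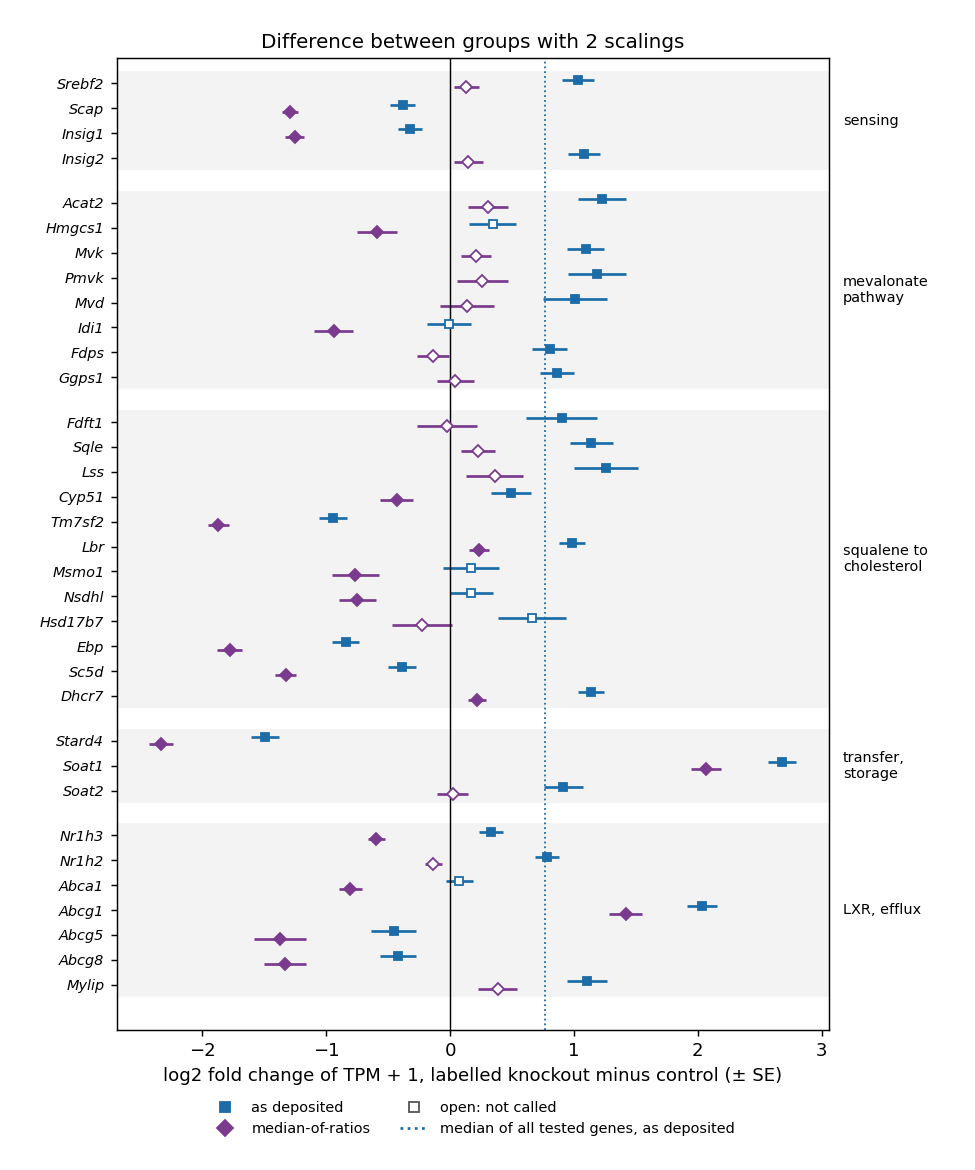
Log2 fold change of TPM + 1, labelled knockout minus control, ± SE, as deposited (squares) and with median-of-ratios scaling (diamonds), with open symbols for genes not called. The dotted line is the median of all tested genes as deposited, 0.77, and 9 of the 20 synthesis enzymes lie to its left.

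The 4 sensing genes divided into a pair that rose as deposited and a pair that fell. Srebf2, which encodes SREBP2, stood at 13.7, 14.9 and 12.6 TPM in control libraries, against 32.6, 23.9 and 31.6 in labelled knockout libraries. All 3 labelled knockout libraries were above the controls, with a log2 fold change of 1.03 ± 0.13 (adjusted p = 4.9e-05) as deposited and 0.13 ± 0.10 (adjusted p = 0.26) after scaling. Scap (chromosome 9, 110333288 to 110384950, plus strand) stood at 30.3, 34 and 28.1 TPM in control libraries, against 24.1, 22.3 and 23.5 in labelled knockout libraries. It fell without overlap by 0.38 ± 0.10 on the log2 scale (adjusted p = 0.0054) as deposited, and by 1.29 after scaling. Of the 50-base words of its transcripts 9.96% also occur in another gene, 5830462I19Rik, where reads cannot be assigned to 1 gene.

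The INSIG genes, whose proteins both anchor SCAP, went opposite ways as deposited. Insig1 (ENSMUSG00000045294, chromosome 5, 28071363 to 28078662, plus strand), itself a target of SREBP2, stood at 85.3, 94.3 and 82.2 TPM in control libraries, against 68, 65.3 and 75.1 in labelled knockout libraries. It fell without overlap, with a log2 fold change of -0.32 ± 0.10 (adjusted p = 0.012) as deposited and -1.26 ± 0.08 (adjusted p = 5.8e-06) after scaling. Insig2, which is not a target of SREBP2 in the same way, stood at 84.1, 69.6 and 64.2 TPM in control libraries, against 164, 133 and 166 in labelled knockout libraries. Its log2 fold change was 1.08 ± 0.13 (adjusted p = 3.7e-05) as deposited and 0.15 ± 0.12 (adjusted p = 0.3) after scaling. The ratio of Insig1 to Insig2 within a library, which a single scaling factor per library cannot change, was 1.01, 1.36 and 1.28 in the controls and 0.414, 0.491 and 0.452 in the labelled knockout. The more abundant of the pair was thus Insig1 in every control and Insig2 in every labelled knockout library.

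Early enzymes, which turn acetyl units into isoprenoids through mevalonate, rose as deposited in 6 of 8 cases, a share near the 74.5% of all tested genes, and fell in 0 (10.7%). After scaling 0 were higher (35.1%) and 2 lower (36.6%). Acat2, the cytosolic thiolase that starts the pathway, stood at 27.7, 32.4 and 22.1 TPM in control libraries, against 68.9, 49.6 and 79.3 in labelled knockout libraries, with a log2 fold change of 1.23 ± 0.19 as deposited and 0.31 ± 0.16 (adjusted p = 0.12) after scaling. Of the 50-base words in Acat2 transcripts 39.1% also occur in other genes, mainly its neighbour Acat3, so its level is uncertain. The kinases Mvk and Pmvk, the decarboxylase Mvd, and the prenyl synthases Fdps and Ggps1 had log2 fold changes between 0.80 (Fdps) and 1.19 (Pmvk) as deposited and between -0.14 (Fdps) and 0.26 (Pmvk) after scaling. Fdps, which makes farnesyl diphosphate, stood at 156, 152 and 121 TPM in control libraries, against 233, 224 and 297 in labelled knockout libraries. Ggps1, which extends it to geranylgeranyl diphosphate, stood at 4.34, 4.57 and 5.95 TPM in control libraries, against 11.4, 9.31 and 8.78 in labelled knockout libraries. Neither gene's groups overlapped as deposited, and both overlapped after scaling.

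The 2 mevalonate genes not called as deposited were lower after median-of-ratios scaling. Hmgcs1, which makes HMG-CoA, stood at 78.6, 67.3 and 55.3 TPM in control libraries, against 98.3, 64.2 and 95.5 in labelled knockout libraries. Its groups overlapped, with log2 fold changes of 0.34 ± 0.19 (adjusted p = 0.12) as deposited and -0.59 ± 0.16 (adjusted p = 0.013) after scaling. Quantile normalization (-0.31, adjusted p = 0.16) and rescaling without the most abundant genes (-0.042, adjusted p = 0.84) did not call Hmgcs1. Idi1, the isomerase of the isoprene units, stood at 58.7, 55.6 and 48.5 TPM in control libraries, against 58.7, 39.9 and 65.7 in labelled knockout libraries. Its log2 fold change was -0.01 ± 0.18 (adjusted p = 0.95) as deposited and -0.94 ± 0.16 (adjusted p = 0.0011) after scaling. Idi1 shares 25.3% of its 50-base words with other genes, Fdps 26.2%, Hmgcs1 11.6% and Ggps1 9.58%, chiefly with predicted genes.

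From squalene to cholesterol, enzymes of the same stretch of the pathway had different calls. Of these 12 enzymes 6 rose (74.5% of all tested genes) and 3 fell (10.7%) as deposited, and 2 were higher (35.1%) and 6 lower (36.6%) after scaling. The first steps rose as deposited only. Squalene synthase Fdft1 had a log2 fold change of 0.90 ± 0.29 (adjusted p = 0.022), squalene epoxidase Sqle 1.14 ± 0.17 and lanosterol synthase Lss 1.26 ± 0.26. After scaling these were -0.03, 0.23 and 0.36, and none was called. Fdft1 shares 26.5% of its words with other genes, mostly Ctsb, and its call was lost without any 1 of 3 libraries, control replicate 1 (adjusted p = 0.063) or 3 (adjusted p = 0.066) or labelled knockout replicate 1 (adjusted p = 0.075), and with the replicate number as a block (adjusted p = 0.051).

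The next enzymes remove methyl groups from the sterol ring. Cyp51, the lanosterol demethylase, stood at 42.1, 39.9 and 32.5 TPM in control libraries, against 57.7, 42.6 and 63.2 in labelled knockout libraries, with log2 fold changes of 0.49 ± 0.16 (adjusted p = 0.016) as deposited and -0.43 ± 0.13 (adjusted p = 0.021) after scaling. The higher call of Cyp51 did not hold without control replicate 3 (adjusted p = 0.066) or labelled knockout replicate 1 (adjusted p = 0.054) or 3 (adjusted p = 0.058), or with no filter (adjusted p = 0.052). Its lower call after scaling was lost without control replicate 1 (adjusted p = 0.062) and with no filter (adjusted p = 0.058), and quantile normalization did not give it (adjusted p = 0.27). Msmo1 and Nsdhl, with log2 fold changes of 0.17 ± 0.22 and 0.17 ± 0.17, were not called as deposited and were lower after scaling, at -0.77 and -0.75, though quantile normalization did not call Msmo1 (-0.36, adjusted p = 0.2). Hsd17b7 was not called with either scaling (0.66 ± 0.27 with adjusted p = 0.056, and -0.23 ± 0.24 with adjusted p = 0.42), the only 1 of the 34 genes in that position.

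The enzymes that reduce and isomerize the sterol ring parted. Tm7sf2 and Lbr encode alternative reductases of the same sterol intermediate, LBR being also a protein of the inner nuclear membrane that binds chromatin. Tm7sf2 (ENSMUSG00000024799, chromosome 19, 6062821 to 6068373, minus strand) stood at 66.3, 85.5 and 71.5 TPM in control libraries, against 39.9, 37.1 and 36.9 in labelled knockout libraries. It fell without overlap, with a log2 fold change of -0.95 ± 0.11 (adjusted p = 3.0e-05) as deposited and -1.87 ± 0.09 (adjusted p = 2.1e-06) after scaling, and 9.87% of its words occur in the overlapping gene Vps51. Lbr stood at 2.56, 2.83 and 2.49 TPM in control libraries, against 6.84, 5.58 and 6.13 in labelled knockout libraries, with a log2 fold change of 0.98 ± 0.11 (adjusted p = 1.6e-05) as deposited and 0.23 ± 0.08 (adjusted p = 0.031) after scaling. Of its words 8.41% occur in other genes, chiefly Dnah14. Within a library Tm7sf2 exceeded Lbr 25.9, 30.2 and 28.7 times in the controls and 5.84, 6.64 and 6.02 times in the labelled knockout.

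Ebp and Sc5d, the 2 of the 34 genes with the highest mean TPM in controls, fell, while Dhcr7, which acts after them, rose. Ebp (ENSMUSG00000031168, chromosome X, 8185329 to 8193512, minus strand), the sterol isomerase, stood at 219.5, 219.4 and 199 TPM in control libraries, against 119, 129 and 107 in labelled knockout libraries, a log2 fold change of -0.84 ± 0.11 (adjusted p = 4.8e-05). Sc5d, the sterol desaturase, stood at 174, 165 and 143 TPM in control libraries, against 130.2, 113 and 123 in labelled knockout libraries, a log2 fold change of -0.39 ± 0.11 (adjusted p = 0.0082). Neither gene's groups overlapped, and after scaling Ebp was at -1.78 and Sc5d at -1.33. Dhcr7 (ENSMUSG00000058454, chromosome 7, 143823145 to 143848410, plus strand), the reductase of the last step of one branch, stood at 29.7, 29.6 and 25 TPM in control libraries, against 68.7, 58.2 and 61.8 in labelled knockout libraries. It rose by 1.14 ± 0.11 (adjusted p = 7.0e-06) as deposited and by 0.22 ± 0.07 (adjusted p = 0.032) after scaling. The scaled calls of Lbr and Dhcr7 were both lost without control replicate 2 (adjusted p = 0.062 and 0.081) or 3 (adjusted p = 0.071 and 0.12), and without labelled knockout replicate 1 (adjusted p = 0.11 and 0.1) or 3 (adjusted p = 0.072 and 0.061). The scaled call of Lbr was also lost without control replicate 1 (adjusted p = 0.069) and with the replicate number as a block (adjusted p = 0.065). With no filter both scaled calls were lost (adjusted p = 0.053 and 0.065).

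Summed over the 20 enzymes from Acat2 to Dhcr7, the transcripts made up 1168, 1181 and 966 TPM of control libraries and 1423, 1118 and 1526 TPM of labelled knockout libraries. The groups overlapped, with a ratio of means of 1.23 and p = 0.3 in a two-sided exact permutation test, where 3 libraries against 3 cannot go below 0.1. After median-of-ratios scaling the ratio of the sums was 0.637 (exact permutation p = 0.1), so the direction of the total depends on the scaling. The 8 early enzymes summed to 353 ± 50.3 TPM in control libraries and 594 ± 108 TPM in the labelled knockout (SD, n = 3, exact permutation p = 0.1). The 12 later ones summed to 752 ± 70.7 and 762 ± 113 TPM (exact permutation p = 0.9). After scaling the early enzymes went from 487 ± 50 to 427 ± 69.7 (exact permutation p = 0.3), so the order of the means turned, and the later ones from 1041 ± 49.9 to 547 ± 62.1 (exact permutation p = 0.1).

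One labelled knockout library stood apart across the synthesis enzymes. The order of libraries was looked at after the values were seen. Labelled knockout replicate 2 had the lowest TPM of its group in 17 of the 20 enzymes, where it was lowest in 52.7% of all tested genes, and after scaling in 16 of 20, against 35.5%. Its TPM was between 0.508 (Fdft1) and 1.15 (Ebp) times the mean of the other labelled knockout libraries, with a median of 0.721 over the 20 enzymes and 0.94 over all genes. Mvd, Msmo1, Hsd17b7 and Lss were at 0.541, 0.57, 0.576 and 0.601 times. The transporter genes Abcg5 and Abcg8 went the other way in that library, at 1.58 and 1.38 times. Insig1, at 0.913 times, Scap, at 0.939 times, and the enzyme gene Tm7sf2, at 0.964 times, stayed near the median of all genes. The other sensing genes were lower in that library, Srebf2 at 0.747 times and Insig2 at 0.807 times. Among the controls, replicate 3 was lowest in 18 of the 20 enzymes (48.1% of all genes) and after scaling in 16 (26.3%).

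Leaving out labelled knockout replicate 2 raised the number of the 34 genes higher with both scalings from 4 to 10, or 29.4%, where 34.6% of all tested genes were. The 6 gained were Srebf2, Acat2, Mvk, Mvd, Sqle and Lss, with scaled log2 fold changes from 0.24 (Srebf2, adjusted p = 0.024) to 0.57 (Lss, adjusted p = 0.04). Hmgcs1 (0.54, adjusted p = 0.0067), Msmo1 (0.44, adjusted p = 0.0088) and Hsd17b7 (0.91, adjusted p = 0.0045) were then called higher as deposited only. After scaling in the same fit, Hmgcs1 (-0.42, adjusted p = 0.024) and Msmo1 (-0.53, adjusted p = 0.0014) were lower and Hsd17b7 (-0.0071, adjusted p = 0.98) was not called. The library left out was picked after the values were seen, and it had the lowest TPM of its group in every gene named here. Leaving it out had to raise their means in the labelled knockout. The higher calls gained are therefore a description, and their adjusted p-values are not a test. The 8 genes lower with both scalings were the same 8 without that library.

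**Figure D3:**
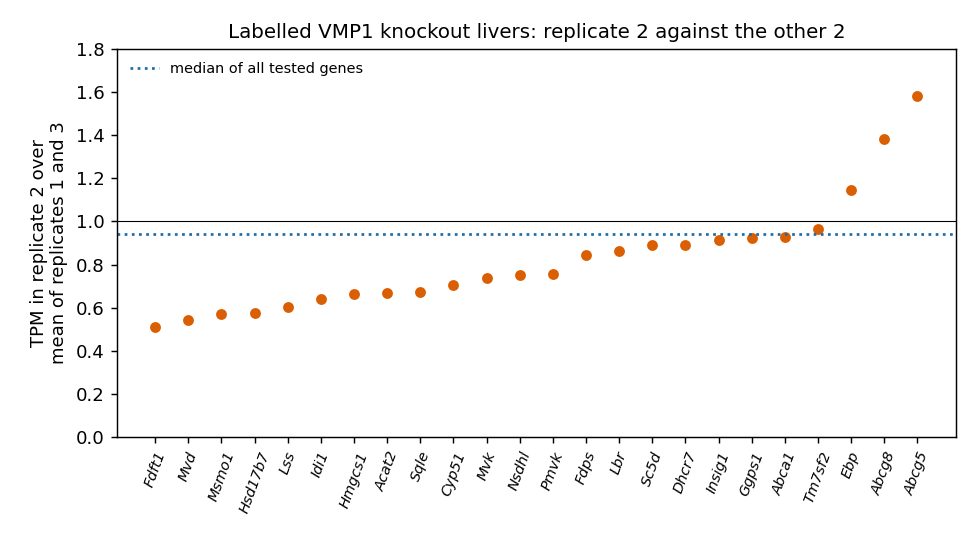
TPM of labelled knockout replicate 2 divided by the mean of labelled knockout replicates 1 and 3, for the 20 synthesis enzymes and for Insig1, Abca1, Abcg5 and Abcg8, in rising order. The dotted line is the median of all tested genes, 0.94, and most enzymes lie below it while Abcg5 and Abcg8 lie highest, at 1.58 and 1.38.

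Among the genes of transfer and storage were both the largest fall and the largest rise of the 34. Stard4 (ENSMUSG00000024378, chromosome 18, 33199355 to 33213862, minus strand), whose protein carries cholesterol between membranes, stood at 15.7, 20.1 and 16.5 TPM in control libraries, against 5.4, 5.81 and 5.31 in labelled knockout libraries. It fell without overlap, with a log2 fold change of -1.50 ± 0.11 (adjusted p = 1.7e-06) as deposited and -2.33 ± 0.09 (adjusted p = 1.2e-06) after scaling. Soat1 (ENSMUSG00000026600, chromosome 1, 156424525 to 156474331, minus strand), the cholesterol esterifying enzyme found in macrophages and many other cells, stood at 0.46, 0.58 and 0.78 TPM in control libraries, against 10, 9.1 and 8.79 in labelled knockout libraries. The ratio of its mean TPM was 15.3 as deposited and 7.9 after scaling, and its log2 fold change was 2.68 ± 0.11 (adjusted p = 6.3e-08). Since Soat1 passed the filter only through the labelled knockout and had to differ, these values are a description. Soat2, the form of hepatocytes and intestine, stood at 13.4, 14.1 and 10.6 TPM in control libraries, against 30.6, 20.8 and 23.6 in labelled knockout libraries, with log2 fold changes of 0.91 ± 0.16 (adjusted p = 4.0e-04) as deposited and 0.02 ± 0.12 (adjusted p = 0.89) after scaling. Soat2 remained the more abundant form in all 6 libraries, but Soat1 went from 0.0343, 0.041 and 0.0733 of its level in the controls to 0.327, 0.437 and 0.373 in the labelled knockout. The macrophage markers that moved with Soat1 are given above, and their part in its rise was not tested.

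The LXR genes and their transporter targets had different calls. Nr1h3, which encodes LXRalpha, stood at 48.3, 54 and 47.1 TPM in control libraries, against 66.8, 60.7 and 61.2 in labelled knockout libraries, with log2 fold changes of 0.33 ± 0.10 (adjusted p = 0.009) as deposited and -0.60 ± 0.07 (adjusted p = 1.1e-04) after scaling. Nr1h2, which encodes LXRbeta, was at 25.1, 28.3 and 23.2 TPM and at 44.1, 44.2 and 45 TPM in the same order. The ratio of Nr1h3 to Nr1h2 was 1.92, 1.91 and 2.03 in the controls and 1.51, 1.37 and 1.36 in the labelled knockout, so LXRalpha transcripts stayed the more abundant. Mylip, an LXR target that marks lipoprotein receptors for degradation, had log2 fold changes of 1.10 ± 0.16 (adjusted p = 1.4e-04) as deposited and 0.38 ± 0.16 (adjusted p = 0.062) after scaling.

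Abca1 and Abcg1, which load cholesterol onto high-density lipoprotein, differed from each other. Abca1 stood at 15.6, 13.3 and 12.5 TPM in control libraries, against 15.1, 13.8 and 14.7 in labelled knockout libraries. Its groups overlapped, with a log2 fold change of 0.08 ± 0.11 (adjusted p = 0.52) as deposited, and it was lower after scaling (-0.81 ± 0.09, adjusted p = 1.4e-04). Abcg1 (ENSMUSG00000024030, chromosome 17, 31057675 to 31117988, plus strand), prominent in macrophages, stood at 0.67, 0.72 and 0.88 TPM in control libraries, against 6.34, 7.06 and 5.29 in labelled knockout libraries. The ratio of its mean TPM was 8.23 as deposited and 4.27 after scaling, and its log2 fold change was 2.04 ± 0.12 (adjusted p = 4.1e-07). Since Abcg1 passed the filter only through the labelled knockout and had to differ, these values are a description. Abca1 exceeded Abcg1 23.3, 18.5 and 14.2 times in the controls and 2.38, 1.96 and 2.78 times in the labelled knockout. As for Soat1, the part of the macrophage markers in the rise of Abcg1 was not tested.

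Abcg5 and Abcg8, whose products pair to export sterols into bile, both fell, and 1 labelled knockout library lay near the controls. Abcg5 (chromosome 17, 84658234 to 84683011, minus strand) stood at 42.3, 48.3 and 44.7 TPM in control libraries, against 25.6, 44.3 and 30.3 in labelled knockout libraries. Abcg8 (chromosome 17, 84676302 to 84700333, plus strand), annotated on the opposite strand and overlapping it so that reads of the shared stretch may not be told apart, stood at 32.7, 37.7 and 35.7 TPM in control libraries, against 21.1, 32.5 and 26.1 in labelled knockout libraries. Labelled knockout replicate 2 overlapped the controls for Abcg5 and lay just under the lowest control for Abcg8. The log2 fold changes were -0.46 ± 0.18 (adjusted p = 0.042) and -0.42 ± 0.15 (adjusted p = 0.023) as deposited and -1.37 and -1.33 after scaling. Without labelled knockout replicate 2 they were -0.67 (adjusted p = 4.7e-04) and -0.57 (adjusted p = 0.002). That library was the highest of its group for both genes, so leaving it out had to deepen the fall, and these values are a description. Neither call held without control replicate 2 (adjusted p = 0.12 and 0.08) or 3 (adjusted p = 0.091 and 0.065), without labelled knockout replicate 1 (adjusted p = 0.13 and 0.09) or 3 (adjusted p = 0.11 and 0.053), or with no filter on low genes (adjusted p = 0.097 and 0.068). That of Abcg5 was also lost without control replicate 1 (adjusted p = 0.063). Their ratio to each other overlapped between groups, at 1.29, 1.28 and 1.25 in the controls and 1.22, 1.36 and 1.16 in the labelled knockout.

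Ratios inside a library are not changed by a single scaling factor per library, such as median-of-ratios, though quantile normalization can change them. In all, 8 pairs were compared. In 5 of them, Soat1 to Soat2, Insig1 to Insig2, Abca1 to Abcg1, Nr1h3 to Nr1h2 and Tm7sf2 to Lbr, the groups did not overlap, with differences in log2 ratio of 3.003, -1.42, -2.96, -0.47 and -2.20. Each gave p = 0.1 in the two-sided exact permutation test, the smallest possible here, and 0.16 after Benjamini-Hochberg adjustment over the 8 pairs. Soat1 and Abcg1, however, passed the filter only through the labelled knockout and had to differ. The ratios of Soat1 to Soat2 and of Abca1 to Abcg1, which had the largest differences, inherit this. Their separation is therefore a description and their p-values test nothing. The groups overlapped for Abcg5 to Abcg8 (-0.04, exact permutation p = 0.6), Scap to Insig1 (-0.07, exact permutation p = 0.3) and Fdps to Ggps1 (-0.19, exact permutation p = 0.8). Scap stood at 0.356, 0.36 and 0.342 of the level of Insig1 in the controls and at 0.354, 0.342 and 0.313 in the labelled knockout, and both genes fell.

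**Figure D4:**
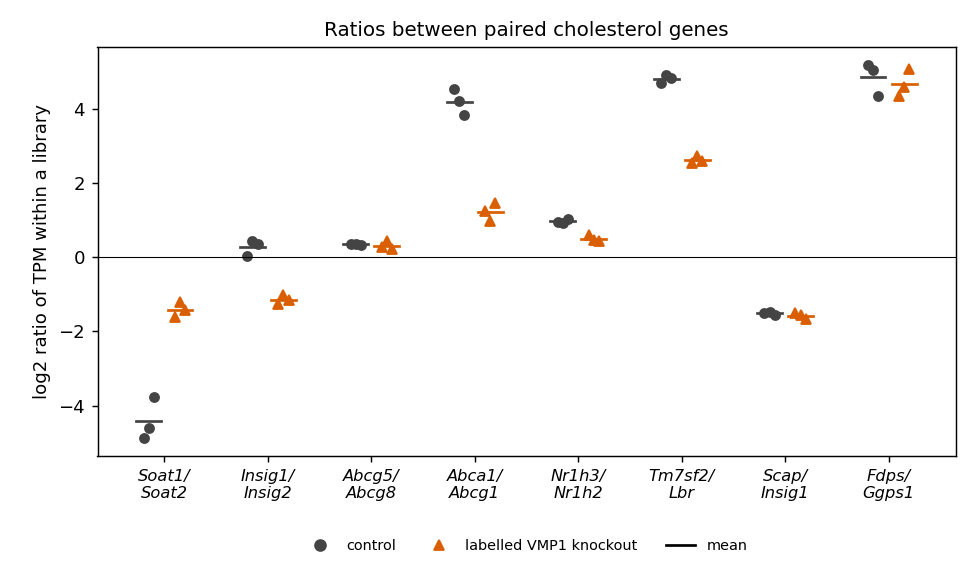
Log2 ratio of TPM between paired genes within each library, with 3 controls as circles, 3 labelled knockout libraries as triangles and group means as bars. Soat1 to Soat2 is higher in all labelled knockout libraries. Insig1 to Insig2, Abca1 to Abcg1, Nr1h3 to Nr1h2 and Tm7sf2 to Lbr are lower in all of them. The other 3 pairs overlap. Soat1 and Abcg1 had to differ, so the pairs that hold them are a description.

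Other genes of cholesterol handling, in 4 lists of 46 genes of which 45 were tested, rose in 29 cases (74.5% of all tested genes) and fell in 8 (10.7%) as deposited, and were higher in 10 (35.1%) and lower in 25 (36.6%) after scaling. For endosomal, lysosomal and membrane transfer, 8 of 14 rose (74.5% of all tested genes) and 3 fell (10.7%). Npc2, which binds cholesterol inside lysosomes, rose from 23.3 ± 6.04 to 130.4 ± 9.54 TPM (SD, n = 3), with log2 fold changes of 2.46 ± 0.16 (adjusted p = 1.4e-06) as deposited and 1.54 after scaling. Lipa, the lysosomal lipase of cholesteryl esters, rose by 1.36 and, after scaling, by 0.43. Scp2, a sterol carrier of peroxisomes, fell from 1901 ± 141 to 509 ± 49.1 TPM, or by a log2 difference of -1.90 ± 0.12 (adjusted p = 6.7e-07). Gramd1b, which brings plasma membrane cholesterol to the endoplasmic reticulum, stood at 0.34, 0.64 and 0.27 TPM in control libraries, against 2.04, 2.58 and 1.89 in labelled knockout libraries. It passed the filter only through the labelled knockout and had to differ, so its log2 fold changes of 1.16 and, after scaling, 0.72 are a description.

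Among the hydroxylases of the oxysterol list, Cyp7b1 and Cyp27a1 fell as deposited. Of 9 tested genes on the list of oxysterol enzymes and LXR partners or targets, 4 rose (74.5% of all genes) and 4 fell (10.7%) as deposited, and after scaling 0 were higher (35.1%) and 7 lower (36.6%). The oxysterol hydroxylase Cyp7b1 fell from 196 ± 82.3 to 16.1 ± 2.53 TPM (SD, n = 3), or by a log2 difference of -3.43 ± 0.37 (adjusted p = 2.5e-04). Cyp27a1, the sterol 27-hydroxylase of mitochondria, fell from 327 ± 70.8 to 177 ± 23.5 TPM, or by a log2 difference of -0.87 ± 0.17 (adjusted p = 8.6e-04). Cyp46a1, another sterol hydroxylase, had means of 1.83 TPM in controls and 0.51 TPM in the labelled knockout. Since it was under 1 TPM in every labelled knockout library, it passed the filter only through the controls and had to differ. Its fall is a description, though it is counted among the 4 that fell and the 7 lower after scaling. Ch25h, which also hydroxylates cholesterol, did not pass the filter and was not tested, and it stood at 0.01, 0.01 and 0 TPM in control libraries, against 0.62, 1.68 and 0.64 in labelled knockout libraries. The phospholipid transfer protein gene Pltp rose by 1.57 as deposited and was at 0.68 (adjusted p = 0.1) after scaling.

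The isoprenoid branch leaves the pathway for dolichol, ubiquinone and protein prenylation. Of 13 genes on this branch 12 rose as deposited (74.5% of all tested genes) and 0 fell (10.7%). After scaling 5 were higher (35.1%) and 5 lower (36.6%), and these scaled shares were near those of all genes. Nus1 and Srd5a3, both of dolichol synthesis, rose by 1.75 and 1.63, and by 0.87 and 0.76 after scaling. Rce1, a protease of prenylated proteins, rose by 1.39 and Pdss1, of ubiquinone synthesis, by 1.15, and after scaling by 0.53 and 0.55. Of 9 genes of SREBP processing and sterol-regulated degradation, 5 rose (74.5% of all genes) and 1 fell (10.7%) as deposited, and 1 was higher (35.1%) and 5 lower (36.6%) after scaling. Mbtps2, the protease that makes the second cut in SREBP2, rose by 1.10 and, after scaling, by 0.42 (adjusted p = 0.0044). Erlin2 and Rnf145 rose by 0.92 and 0.81 as deposited and were not called after scaling.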

How the data were processed

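Liver RNA of 6 samples was made into libraries with an Illumina protocol, per the labels' protocols. The authors deposited 1 table of TPM values with Ensembl identifiers and symbols. Tools listed in the submitters' processing notes are STAR 2.6.1c, RSEM and edgeR, and the build is mm10, none with a stated role. Read numbers are lost in TPM, so the depth of each library is unknown and limits on precision cannot be given, and strand is not given in the sources used here. Groups and columns were taken from sample titles, and 0 columns were unmapped.

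Genes that reached 1 TPM in 3 or more libraries entered limma 3.58.1 in R 4.3.3 on log2(TPM + 1), with an intensity trend and robust variances, p-values being adjusted by the Benjamini-Hochberg method with a threshold of 0.05. The fit was made on deposited values and again on a median-of-ratios scale. It was tested on simulated data in which few genes changed, as many up as down, so a shift of most genes was not covered. Positions are from GENCODE M21 on GRCm38 (mm10), and shared 50-base words were counted in its transcripts on either strand. Figures used matplotlib 3.10.9 under Python 3.11.15. The members and lists were chosen with earlier results of these data known. All 34 members are reported, and from each other list up to 4 called genes with the largest change, of which 1 is not reported here. Genes with values in every library are those called with both scalings or in opposite directions, and members of the compared pairs. Srebf2, Acat2, Hmgcs1 and Idi1 were added after their values were seen.

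Alternatives changed the pseudocount, filter, scaling, variance model, threshold and replicate block, and left out each library.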

Additional observations from a re-analysis of the deposited data

How the results depend on the processing

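The 20 members higher and 8 lower as deposited became 4 and 15 with median-of-ratios scaling, and 8 and 12 with quantile normalization. With quantile normalization in place of median-of-ratios, 8 members were higher in both fits. The fold changes that turned lower with median-of-ratios scaling were Hmgcs1 (-0.59), Fdps (-0.14), Fdft1 (-0.028), Cyp51 (-0.43), Msmo1 (-0.77), Nsdhl (-0.75), Hsd17b7 (-0.23), Nr1h3 (-0.60), Nr1h2 (-0.13) and Abca1 (-0.81). With quantile normalization they were Hmgcs1 (-0.31), Cyp51 (-0.19), Msmo1 (-0.36), Nsdhl (-0.52), Hsd17b7 (-0.12), Nr1h3 (-0.34) and Abca1 (-0.70). Rescaling without mitochondrial, Mup and the 20 most abundant genes turned Hmgcs1 (-0.042), Msmo1 (-0.22), Nsdhl (-0.21), Nr1h3 (-0.050) and Abca1 (-0.30). The log2 ratio of the summed synthesis enzymes, 0.29 as deposited, was -0.66 with median-of-ratios scaling and -0.10 with that rescaling. At an adjusted p of 0.01 members lower fell to 5, those higher with both scalings to 2 and those lower with both to 5. With no filter 2 were higher with both. Over all 12796 genes, the 9537 higher and 1369 lower as deposited became 4496 and 4689 with median-of-ratios scaling and 4520 and 4534 with quantile normalization, and the rescaling gave 2234 lower. Lbr's higher call was lost with quantile normalization (0.15, adjusted p = 0.15).

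Leaving out 1 library gave 18 to 23 members higher and 6 to 8 lower as deposited, and 2 to 10 higher and 6 to 8 lower with both scalings. The number higher with both was 10 without labelled knockout replicate 2, and 2 without control replicate 3 or labelled knockout replicate 1 or 3. The summed ratio ranged from 0.19 to 0.42. Idi1, near 0, changed sign (range -0.156 to 0.196) without control replicate 1 (0.046) or 2 (0.0070) and without labelled knockout replicate 2, and Abcg5 to Abcg8 without labelled knockout replicate 3 (range -0.101 to 0.0137). A pseudocount of 1 shrank the log2 differences of Soat1 to Soat2 (1.77), Abca1 to Abcg1 (-1.96) and Tm7sf2 to Lbr (-1.93). Deviations from the group mean had correlations of 0.08, 0.04 and -0.12 in same-numbered samples, and from -0.14 to 0.098 in differently numbered ones. So few libraries cannot decide whether the numbers pair the samples. With the replicate block 19 members were higher and 8 lower as deposited, and 3 and 8 with both scalings, the calls lost being Fdft1 and, after scaling, Lbr. The other settings, pseudocounts of 0.1 and 5, a filter at 5 TPM and the plain variance model, left the counts of members within 1.5 times, and the plain variance model added a call for Hsd17b7 (adjusted p = 0.034). Fold changes of low genes depend on the pseudocount, and with 5 in place of 1 those of Soat1, Abcg1, Lbr, Mylip and Ggps1 were 1.35, 0.96, 0.55, 0.58 and 0.58. With 0.1 Soat1 and Abcg1 were at 3.76 and 2.88.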
